A study of Mus musculus with 6 samples.

Results

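Glycolysis and the response to low oxygen were followed through 36 mouse genes in tumor cells sorted for the capacity to start metastases. The genes were taken from a list made of 20 glycolytic enzymes and their regulators, 4 membrane transporters for glucose and lactate, and 12 hypoxia factors and targets, and all 36 were among the 22310 genes measured. The cells came from mammary tumors of MMTV-PyMT mice on the FVB/N background, in which the MMTV promoter drives the polyoma middle T oncogene in mammary epithelium, and the labels give the genotype of every library as WT. The tumor cells were plated in DMEM/F12 medium that held insulin (10 µg/ml), hEGF (20 ng/ml), 2% FBS and penicillin-streptomycin, and flow cytometry the next day separated metastasis-initiating cells (MICs), gated as Lin-CD24+CD90+, from non-MICs, gated as Lin-CD24+CD90-. RNA of 3 MIC and 3 non-MIC libraries was sequenced, and each population carries the numbers 1 to 3. All cells therefore spent a night in culture, the oxygen level of which the labels do not give, and the sources do not say how many animals stand behind a number.

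Glycolysis splits glucose into pyruvate in the cytosol, and lactate dehydrogenase can turn the pyruvate into lactate, which monocarboxylate transporters carry out of the cell. Hypoxia-inducible factors are made all the time and destroyed when prolyl hydroxylases mark them with the help of oxygen. When oxygen is low the factors persist, bind DNA at short motifs and raise the transcription of glycolytic enzymes, glucose transporters, angiogenic ligands and pH regulators. Their regulation lies largely in protein stability, so the RNA of a factor is not a measure of its activity, and the study asks how the metabolism of MICs differs from that of non-MICs.

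Each library held between 31467281 and 51759769 recovered reads, and its values are read counts scaled to a common total, called scaled counts here. The sort could be followed in the data. Thy1, which encodes the CD90 of the gate, was at 1509, 301 and 755 (MICs) against 16.9, 21.1 and 12.6 (non-MICs) (numbers 1, 2 and 3 in this order, here and throughout), which is 5.32 ± 0.41 (SE) higher in MICs on the log2(scaled count + 1) scale (limma with the replicate number as a block, adjusted p = 5.31e-05). Cd24a, which both gates require, was at 11309, 19406 and 17276 (MICs) against 14009, 14882 and 18754 (non-MICs). Of the 5 luminal epithelial markers all were measured and 0 passed the test, with summed scaled counts of 211658 to 589774 in MICs and 277193 to 697460 in non-MICs. Of 7 basal epithelial markers 4 passed the test (Krt5, Acta2, Myh11 and Cnn1, all higher in MICs), and the list summed to 314214, 8349.8 and 34621 in the MIC libraries against 78376, 6783 and 22319 in the non-MIC libraries. Thus the basal sum was 4.01, 1.23 and 1.55 times as high in MICs in pairs 1, 2 and 3, and the first pair stood apart from the others in its level. The sum follows its most abundant genes, with Acta2 at 230574 in MIC library 1 and Krt14 at 20642 in MIC library 3. By gene, the log2 pair differences were 2.25, 2.38 and 2.64 (Acta2), 2.39, 2.25 and 3.09 (Myh11), 2.50, 2.16 and 2.03 (Cnn1) and 3.45, 2.04 and 1.20 (Krt5). Krt14, which did not pass the test, had 0.50, -0.90 and 0.11. The 7 fibroblast markers summed to 2154, 669.6 and 2003 in the MIC libraries against 1107, 738.5 and 584.9 in the non-MIC libraries, and 0 passed the test. The 6 endothelial markers measured of 7 summed to 25.4 to 57.1 in all libraries, and the 5 leukocyte markers measured of 7 to 173 to 368. Of the leukocyte markers, Cd68 was at 60.4 to 269 and Csf1r at 55.6 to 112. Ptprc was at 0 to 10.0, Adgre1 at 0 to 8.90 and Itgam at 0 to 12.2.

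None of the 36 genes passed the test between MICs and non-MICs after correction. With limma and the replicate number as a block, 0 of 36 passed an adjusted p of 0.05 in either direction, against 0.121% of all genes higher and 0.00896% lower in MICs, and the smallest adjusted p among the 36 was 0.418. At an unadjusted p under 0.05 there were 4 of the 36 (Hk2, Pfkl and Car9 lower in MICs and Bnip3 higher), against 11.2% of all genes. Without the block 0 of 36 were below an unadjusted 0.05, against 1.44% of all genes. On the recovered reads, edgeR's quasi-likelihood test with the block called 0 of 36 (smallest adjusted p = 0.0823, for Slc16a3, with 6 at an unadjusted p under 0.05, as were 11.7% of all genes) against 1.41% of all genes, and DESeq2 with the block called 0 of 36 (smallest adjusted p = 0.290, for Bnip3, with 2 at an unadjusted p under 0.05, as were 8.58% of all genes) against 0.596%. With 3 libraries of each population the intervals remained wide, and a p that misses the threshold does not show that the populations were alike. In bulk RNA, fewer cells of a type and less RNA per cell cannot be told apart.

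The same-numbered pairs were then read pair by pair. The difference had the same sign in all 3 pairs for 0 genes higher in MICs (12.5% of all genes were) and for 9 genes lower in MICs (25.0%, against 18.8% of all genes). The 9 were Gpi1, Pfkl, Pfkm, Pfkfb3, Aldoc, Eno2 and Pkm among the enzymes and Car9 and Ankrd37 among the hypoxia targets. The values of the populations did not overlap for 1 gene, Gpi1, with every MIC library below every non-MIC library, against 3.55% of all genes in that direction and 2.69% in the other, in which there were 0 of the 36. With a pair left out the count can only stay or rise, since fewer pairs have to share a sign. It was 17 of 36 when only pairs 2 and 3 were compared, 10 without pair 2 and 12 without pair 3. With the libraries rescaled by TMM factors the count was 8, since Gpi1 (0.02 in pair 1) and Pkm (0.04 in pair 3) lost the shared sign and Pfkfb2 gained it, and the populations then overlapped for Gpi1 as well. Genes higher in both remaining pairs numbered 1, 11 and 3 when pairs 1, 2 and 3 were left out. No share of all genes is given for the counts with a pair left out.

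**Figure D1:**
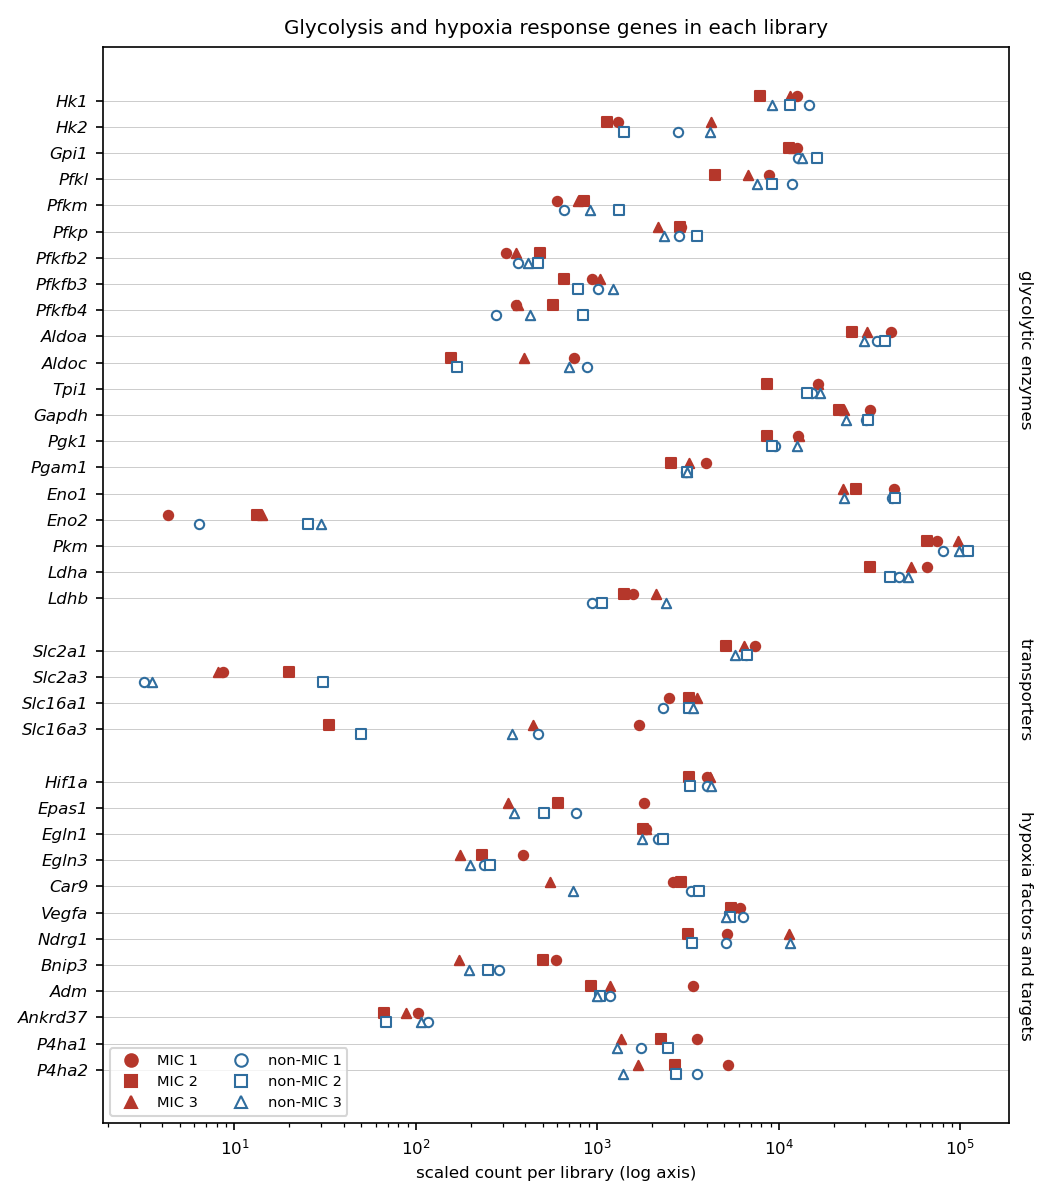
Scaled counts (log axis) of the 36 genes in the 6 libraries, grouped into glycolytic enzymes, transporters and hypoxia factors and targets; filled red symbols are MICs, open blue symbols are non-MICs, and the shape gives the replicate number. MIC and non-MIC symbols overlap in every gene but Gpi1 at the deposited scaling, and Slc16a3 and Car9 spread most by number.

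Among the glycolytic enzymes 16 of 20 had a lower mean in MICs, 0 of them past the test, and the second pair gave most of that direction. The median log2 difference of the 20 enzymes was -0.18, against -0.04 for all genes. Within the pairs the median was 0.0060, -0.52 and -0.08, and 10, 18 and 14 of the 20 enzymes were lower in the MIC library of pairs 1, 2 and 3. Over all genes, 50.6%, 42.6% and 62.7% were lower in the same pairs. In the second pair 11 of the 20 enzymes lay more than 0.5 log2 units lower in MICs, while 1 in the first pair and 2 in the third did. Over all genes 28.1%, 17.3% and 17.2% passed this mark in pairs 1, 2 and 3. Without pairs 1, 2 and 3 in turn the median over the enzymes was -0.28, -0.02 and -0.20. The 20 enzymes together took 0.947%, 0.636% and 0.858% of the reads in the MIC libraries and 0.884%, 0.963% and 0.859% in their partners, so that the share in MICs was 1.07, 0.660 and 0.998 times that in non-MICs. The MIC 2 library had the lowest share of the 6, and its partner, non-MIC 2, had the highest.

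Hk2 and Pfkl, at the steps that trap and commit glucose, had the lowest unadjusted p-values of the 20 enzymes. Hexokinases phosphorylate glucose on entry. Hk2, the inducible form (ENSMUSG00000000628, GRCm38 chr6:82725025-82774454, minus strand), was at 1294, 1126 and 4228 (MICs) against 2785, 1404 and 4183 (non-MICs), a difference of -0.47 ± 0.20 (SE) on the log2 scale (limma, adjusted p = 0.43, 95% interval -0.91 to -0.03). The pair differences were -1.11, -0.32 and 0.02, so that the first pair made most of the mean, which was -0.15 without it. Hk1, the widely expressed form, was at 12603, 7858 and 11549 (MICs) against 14674, 11519.6 and 9105 (non-MICs), and its interval ran from -0.57 to 0.28. Gpi1, glucose phosphate isomerase (ENSMUSG00000036427, GRCm38 chr7:34201330-34230336, minus strand), was at 12597, 11306 and 11914 (MICs) against 12784, 16302 and 13457 (non-MICs), with pair differences of -0.02, -0.53 and -0.18 and an adjusted p of 0.62 (limma).

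Phosphofructokinase makes the committed step of glycolysis. Pfkl, the liver-type subunit (ENSMUSG00000020277, GRCm38 chr10:77986947-78010083, minus strand), was at 8835, 4433 and 6774 (MICs) against 11749, 9176 and 7559 (non-MICs), lower in MICs in all 3 pairs, with a mean difference of -0.54 ± 0.19 (SE, limma, adjusted p = 0.418). It was the enzyme with the smallest p-value. Without the second pair, which differed most, its difference was -0.28. Pfkm, the muscle-type subunit, was at 599.5, 841 and 778 (MICs) against 656, 1315 and 909 (non-MICs) and was also lower in each pair, with a mean difference of -0.33 ± 0.18 (SE). Pfkp, the platelet-type subunit, was at 2898, 2839.6 and 2145 (MICs) against 2832, 3556 and 2319 (non-MICs), with pair differences of 0.03, -0.32 and -0.11. The bifunctional PFKFB enzymes make and break the allosteric activator of phosphofructokinase. Pfkfb3 was at 937, 653 and 1039 (MICs) against 1007, 783 and 1215 (non-MICs) and lower in MICs in each pair, by 0.10 to 0.26 log2 units. Pfkfb2 was at 314, 485 and 357 (MICs) against 366, 468 and 415 (non-MICs). Pfkfb4 was at 357, 569 and 365 (MICs) against 277, 834 and 426 (non-MICs), and its pair differences of 0.36, -0.55 and -0.22 had mixed signs.

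In the middle and lower part of the pathway the pairs disagreed in sign for most enzymes. Aldoa, the main aldolase, which was read under its main identifier (ENSMUSG00000030695), was at 41715, 25299.6 and 30467 (MICs) against 34693, 38637 and 29286 (non-MICs), with pair differences of 0.27, -0.61 and 0.06. Gapdh, which makes NADH and is often taken as a reference gene, was at 31725, 21527 and 22753 (MICs) against 30043, 30808 and 23311 (non-MICs), with pair differences of 0.08, -0.52 and -0.03. Both had the second pair as their lowest. Tpi1, triose phosphate isomerase, was at 16323, 8650.1 and 16436 (MICs) against 15191, 14337 and 16942 (non-MICs). Pgk1, which makes the first ATP of the pathway, was at 12789.7, 8600.0 and 12871 (MICs) against 9572, 9158 and 12644 (non-MICs). Pgam1, which moves the phosphate group within phosphoglycerate, was at 3942, 2540.4 and 3193 (MICs) against 3074, 3114 and 3106 (non-MICs). For Tpi1, Pgk1 and Pgam1 too, the MIC library was the higher one in the first pair and the lower one in the second. Eno1, the main enolase, was at 42856, 26481 and 22629 (MICs) against 41817, 43690.4 and 22879.7 (non-MICs), and its difference was -0.23 ± 0.21 (SE). Pkm, pyruvate kinase, was at 74099.7, 65862 and 96447 (MICs) against 80385, 109738 and 98733 (non-MICs); all 3 pairs were negative (-0.12, -0.74 and -0.03), with an interval of -0.82 to 0.23 (limma, adjusted p = 0.653). Of these abundant enzymes lower in every pair, Pfkl kept that under TMM scaling, and Pkm and Gpi1 did not.

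Lactate dehydrogenase closes the pathway. Ldha, whose subunit favors lactate formation, was at 65277, 31916 and 53756 (MICs) against 45642, 41036 and 51172 (non-MICs), with pair differences of 0.52, -0.36 and 0.07 and a mean of 0.07 ± 0.23 (SE). Ldhb, whose subunit favors the reverse reaction, was at 1570.0, 1394 and 2103 (MICs) against 931, 1055 and 2402 (non-MICs), with pair differences of 0.75, 0.40 and -0.19 and a mean of 0.32 ± 0.19 (SE, limma, adjusted p = 0.535). Thus neither subunit kept its direction through the 3 pairs. Aldoc and Eno2 are forms enriched in brain. Aldoc was at 741, 157 and 396 (MICs) against 872, 169 and 696 (non-MICs) and lower in MICs in each pair, most in the third (-0.81). Eno2 was at 4.31, 13.3 and 14.2 (MICs) against 6.35, 25.4 and 30.2 (non-MICs), which is between 4 and 43 reads, so its pair differences of -0.47, -0.88 and -1.04 rest on few reads. Several of the abundant enzymes (Gapdh, Aldoa, Pgk1, Ldha, Eno1, Tpi1, Pgam1 and Pkm) have processed pseudogenes that can share their reads, and their values are uncertain to that extent.

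None of the 4 transporters was higher or lower in MICs in all 3 pairs. Slc2a1 (GLUT1), the basal glucose transporter and a hypoxia target, was at 7355, 5093 and 6408 (MICs) against 6615, 6686 and 5752 (non-MICs), with pair differences of 0.15, -0.39 and 0.16 and an interval of -0.41 to 0.35 around -0.03 ± 0.17 (SE). Slc16a1 (MCT1), a lactate and pyruvate carrier, was at 2478, 3180.0 and 3542 (MICs) against 2302, 3197 and 3366 (non-MICs), with pair differences of 0.11, -0.01 and 0.07. In both genes the populations overlapped. Slc16a3 (MCT4), a lactate exporter of glycolytic cells and a hypoxia target (ENSMUSG00000025161, GRCm38 chr11:120948480-120960868, plus strand), was at 1698, 33.4 and 442 (MICs) against 468, 49.7 and 340.1 (non-MICs). MIC 1 held the highest value and MIC 2 the lowest of the 6. Its pair differences were 1.86, -0.56 and 0.38, and the mean of 0.56 ± 0.35 (SE, limma, adjusted p = 0.556) became -0.09 without the first pair and 1.12 without the second. The basal marker sum also was highest in MIC 1, with 4.01 times the level of its partner, and its part in the Slc16a3 values was not tested. Slc2a3 (GLUT3), a high-affinity glucose transporter, was at 8.63, 20.0 and 8.11 (MICs) against 3.18, 30.6 and 3.51 (non-MICs), or 3 to 29 reads, and its interval was -0.62 to 1.71. The median over the 4 was 0.30, with 0.68, -0.48 and 0.27 within the pairs, and was -0.03, 0.63 and 0.18 without pairs 1, 2 and 3.

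**Figure D2:**
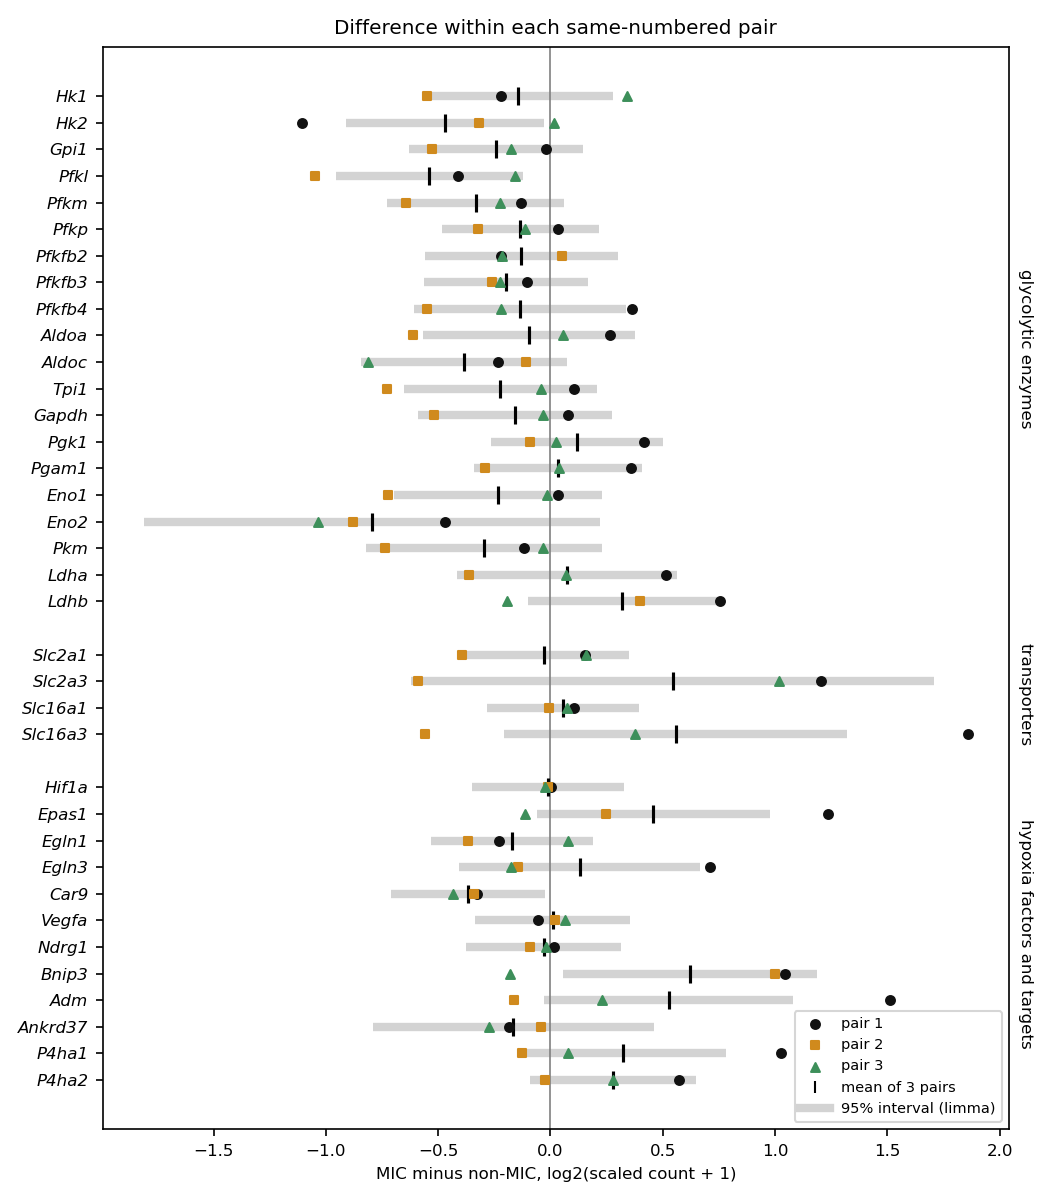
Difference between MIC and non-MIC on the log2(scaled count + 1) scale for each same-numbered pair (circle, square and triangle for pairs 1, 2 and 3), with the mean of the 3 pairs (bar) and its 95% interval from limma (grey). Only Hk2, Pfkl, Car9 and Bnip3 have intervals that leave out 0 before correction, and in 18 of 20 enzymes the square lies left of 0.

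The hypoxia factors and their regulators had no difference past correction. Hif1a, the oxygen-regulated subunit of the main factor, was at 4022, 3213 and 4170.1 (MICs) against 4022, 3240.4 and 4239.6 (non-MICs), and its difference of -0.01 ± 0.16 (SE) had an interval of -0.35 to 0.33, among the narrowest of the 36. Epas1 encodes the alpha subunit of the other main factor. Its scaled counts were 1798, 606 and 323 (MICs) against 762, 510.3 and 349 (non-MICs), with pair differences of 1.24, 0.25 and -0.11 (limma, adjusted p = 0.485). MIC 1 was the highest of the 6 libraries, and the mean was 0.46 with all pairs and 0.07 without the first. Epas1 is also strongly expressed in endothelium. The endothelial marker sum was 2.25, 1.29 and 0.737 times as high in MICs in pairs 1, 2 and 3, at 57.1 in MIC 1 against 25.4 in its partner. In the first pair Pecam1 (19.4 against 5.29), Cdh5 (12.9 against 4.23), Kdr (6.47 against 4.23) and Tek (11.9 against 1.06) were higher in MICs. Emcn was nearly level there (1.08 against 1.06), and Vwf was lower (5.39 against 9.53). In pair 2 Tek (1.08), Emcn (2.45) and Vwf (1.67) were higher in MICs on the log2 scale, Kdr was level, and Pecam1 (-0.36) and Cdh5 (-0.11) were lower. In pair 3 Cdh5 (0.17) was higher and the others were lower, with Pecam1 at -0.79. Pecam1 rested on 5 to 18 reads. The part of endothelial cells in the Epas1 values was not tested. Egln1 and Egln3 encode prolyl hydroxylases, and Egln3 is itself a hypoxia target. Egln1 was at 1848, 1789 and 1862 (MICs) against 2167, 2304 and 1764 (non-MICs). Egln3 was at 387, 230.2 and 175 (MICs) against 236, 255 and 198 (non-MICs), where MIC 1 was the highest library and MIC 3 the lowest.

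Of the hypoxia targets, Car9 and Ankrd37 were lower in MICs in all 3 pairs. Car9, carbonic anhydrase IX at the cell surface, which helps to keep the cytosol from becoming acid (ENSMUSG00000028463, GRCm38 chr4:43506966-43513729, plus strand), was at 2619, 2869.7 and 545 (MICs) against 3287, 3638 and 736 (non-MICs). The pair differences were -0.33, -0.34 and -0.43, the mean was -0.37 ± 0.16 (SE), and the adjusted p was 0.427 (limma). The pairs were close to each other, while the levels of the third pair were far below those of the others, so that the populations overlapped. Ankrd37, a small ankyrin repeat protein and a hypoxia target, was at 102, 66.7 and 87.9 (MICs) against 116, 68.7 and 107 (non-MICs), with pair differences of -0.18, -0.04 and -0.28 and a mean of -0.17 ± 0.29 (SE).

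Their promoters are shown because they are the hypoxia targets of the set with the same direction in all pairs. The windows are from RefSeq on GRCm38.p6, run from 250 bases before to 50 bases after the start of the gene, and are written 5′ to 3′ on the strand of the gene, with the core motifs of hypoxia-inducible factors, ACGTG and GCGTG, in capitals on either strand. Car9 lies on the plus strand at chr4:43506776-43507075 and Ankrd37 on the minus strand at chr8:45999801-46000100.
Car9: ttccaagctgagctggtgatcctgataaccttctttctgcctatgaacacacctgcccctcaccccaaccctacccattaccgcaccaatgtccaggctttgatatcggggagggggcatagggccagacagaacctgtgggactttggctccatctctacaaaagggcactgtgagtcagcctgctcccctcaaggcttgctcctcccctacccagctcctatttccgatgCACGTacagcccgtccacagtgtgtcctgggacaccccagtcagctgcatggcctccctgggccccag
Ankrd37: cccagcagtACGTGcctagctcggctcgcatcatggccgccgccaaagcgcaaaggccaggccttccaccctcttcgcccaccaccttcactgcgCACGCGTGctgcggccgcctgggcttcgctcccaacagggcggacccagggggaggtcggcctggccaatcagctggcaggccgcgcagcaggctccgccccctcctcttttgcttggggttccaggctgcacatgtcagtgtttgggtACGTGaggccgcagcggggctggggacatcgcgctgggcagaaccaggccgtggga
The Car9 window held 1 motif, an ACGTG on the opposite strand that begins 18 bases before the start. The Ankrd37 window held 4, at 241, 155, 152 and 6 bases before the start, of which those at 155 and 152 overlap. Of the 36 genes 33 had a window, and ACGTG was present in 24 of these 33 genes (72.7%): 12 of 20 enzymes, 3 of 3 transporters and 9 of 10 hypoxia genes. Among all 27025 genes with windows it was present in 21.8%, and among the 8795 of them with a mean scaled count of at least 100 in 30.2%. GCGTG was present in 22 of the 33 genes (66.7%), against 35.2% and 58.4%. Many of the 36 genes are on the list because they are known targets of these factors, and a match is a description of the letters, not of binding.

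The other targets followed the pairs in different ways. Bnip3, a mitochondrial protein of mitophagy (ENSMUSG00000078566, GRCm38 chr7:138890836-138909519, minus strand), was at 594, 502 and 172 (MICs) against 288, 250.4 and 195 (non-MICs). MIC values exceeded their partners in pairs 1 and 2 but not in pair 3 (differences of 1.04, 1.00 and -0.18), with a mean of 0.62 ± 0.26 (SE, limma, adjusted p = 0.423). Adm, the vasodilator peptide adrenomedullin, was at 3346, 925 and 1169.8 (MICs) against 1174, 1035 and 997 (non-MICs), where MIC 1 stood alone and the other 5 libraries lay between 925.4 and 1174. Without the first pair its mean difference was 0.03. P4ha1 and P4ha2 are the catalytic subunits of the collagen prolyl hydroxylases. P4ha1 was at 3549, 2228 and 1348 (MICs) against 1740.0, 2435 and 1279 (non-MICs), and P4ha2 was at 5244, 2659 and 1672 (MICs) against 3522, 2703 and 1376 (non-MICs). Both were highest in MIC 1. Vegfa, the angiogenic ligand, was at 6101, 5480.1 and 5334 (MICs) against 6346, 5397 and 5102 (non-MICs), with an interval of -0.33 to 0.35. Ndrg1, a stress-responsive gene, was at 5197, 3137 and 11334 (MICs) against 5138, 3338 and 11481 (non-MICs), with pair differences of 0.02, -0.09 and -0.02. For Vegfa and Ndrg1, as for Hif1a, the members of a pair differed by less than 0.10 log2 units.

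Over the 12 hypoxia genes the median difference was 0.07 (0.30, -0.07 and -0.02 in pairs 1, 2 and 3, and -0.02, 0.14 and 0.13 with pairs 1, 2 and 3 left out). In the first pair 6 of the 12 lay more than 0.5 log2 units higher in MICs (Epas1, Egln3, Bnip3, Adm, P4ha1 and P4ha2), while Car9, Egln1, Vegfa and Ankrd37 were lower in the same pair. Bnip3 alone of the 12 passed this mark in the second pair, and 0 did in the third. Over all genes 20.9%, 28.3% and 10.5% passed it in pairs 1, 2 and 3. The first pair also had the highest basal marker sums and the largest difference in them. By gene, Krt5, Cnn1 and Trp63 differed most in the first pair, Acta2, Myh11 and Oxtr in the third, and Krt14 in the second. The log2 pair differences of Trp63 were 1.91, 0.57 and 0.47. The fibroblast sum (2154) and the endothelial sum (57.1) were also highest in MIC 1, against 2003 in MIC 3 and 54.5 in MIC 2. The part of basal, fibroblast or endothelial cells in the first pair's values was not tested.

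Several of the genes differed between the replicate numbers. An F test between the numbers in the same limma fit called 13 of the 36 (36.1%, adjusted p under 0.05), against 28.4% of all genes. They were 4 of 20 enzymes (Hk2, Pfkfb4, Aldoc and Ldhb), 2 of 4 transporters (Slc2a3 and Slc16a3) and 7 of 12 hypoxia genes (Epas1, Car9, Ndrg1, Bnip3, Adm, P4ha1 and P4ha2). Car9 averaged 2953, 3254 and 640.4 in numbers 1, 2 and 3, a 5.08-fold range (limma F test, adjusted p = 2.52e-06). Slc16a3 averaged 1083, 41.5 and 391.2, a 26.1-fold range (adjusted p = 2.16e-05, limma). These genes had their lowest levels in different numbers, Car9 in the third and Slc16a3 in the second. Ndrg1 averaged 5168, 3237 and 11407, and here the third number was the highest (adjusted p = 5.36e-05, limma). Aldoc averaged 806.5, 162.9 and 546.3 (adjusted p = 6.62e-05, limma), and Hk2 averaged 2039, 1265 and 4206 (adjusted p = 0.00054, limma). P4ha2 averaged 4383, 2681 and 1524 (adjusted p = 0.000468, limma). Known targets of the same factors did not share an order over the numbers: the third number was the lowest in Car9, P4ha1, P4ha2 and Bnip3 and the highest in Ndrg1 and Hk2. Epas1, which encodes part of a factor, was also lowest in the third number. In contrast, Gpi1, Egln1, Pkm, Slc2a1, Vegfa, Aldoa and Pgam1 ranged by 1.09 to 1.28-fold between the numbers, with adjusted p-values of 0.51 to 0.919 (limma F test). The study counts this comparison as 3 independent experiments or tumors, and does not say which of these a number stands for. The numbers also differ in read depth and in the basal marker sum, so these differences cannot be told apart.

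**Figure D3:**
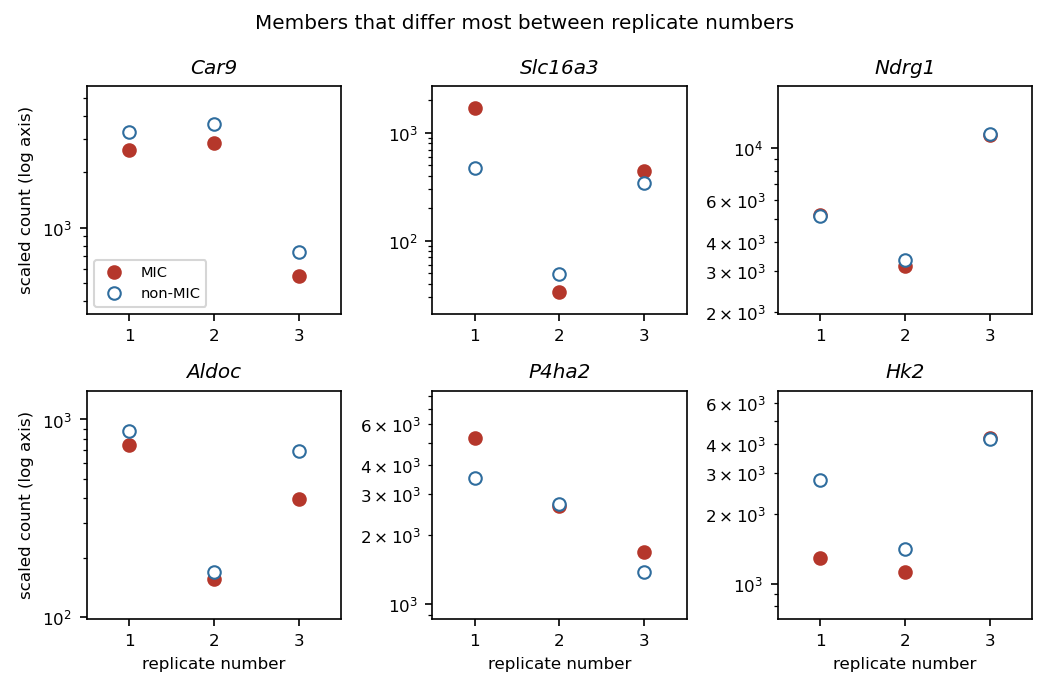
Scaled counts (log axis) by replicate number for the 6 genes with the smallest adjusted p between numbers, with filled red symbols for MICs and open blue symbols for non-MICs. The symbols of a pair lie close together and the numbers far apart in Car9 and Ndrg1, while Slc16a3 also separates within the first pair.

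Levels between genes were compared per kilobase of exon. On this scale Pkm was the highest of the 36 with 17505 ± 3345 (SD over the 6 libraries), followed by Ldha (14542 ± 3456), Aldoa (11456 ± 2114), Gapdh (6459 ± 1120.0), Eno1 (6208 ± 1933), Tpi1 (5320.2 ± 1121) and Pgk1 (4875 ± 904.0). Neighbours in this order differed by less than the SD of either gene, except Ldha and Aldoa, whose gap was above the SD of Aldoa, and Aldoa and Gapdh, whose gap was above both. These 7 stood at percentiles 98.7 to 99.8 of all genes. Slc2a1 was the highest transporter (1802 ± 225.6) and Vegfa the highest of the hypoxia genes (1313 ± 113). Hif1a was at 647.5 ± 79.0 and Epas1 at 129.6 ± 98.5. The lowest were Eno2 (3.32 ± 2.18) and Slc2a3 (1.70, from 0.438 to 4.23).

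Isoform shares were computed from the same per-length values. Aldoa made up at least 97.8% of Aldoa and Aldoc, Eno1 at least 99.8% of Eno1 and Eno2, and Slc2a1 at least 99.78% of Slc2a1 and Slc2a3 in each library. Ldha made up 91.0% to 95.9% of the lactate dehydrogenase pair. Pfkl was the leading phosphofructokinase, with 77%, 58.9% and 72.1% (MICs) against 81.2%, 67.6% and 71.8% (non-MICs). The share of Hk2 in the hexokinase pair was 12.8%, 17% and 34.4% (MICs) against 21.3%, 14.8% and 39.6% (non-MICs). Its mean was 21.4% ± 11.4 (SD, n = 3) in MICs and 25.3% ± 12.9 in non-MICs. The mean difference of 3.89 points between the populations was below its spread over the pairs (5.48 points, SD, n = 3). The share of Slc16a3 in the lactate carriers was 36.3%, 0.866% and 9.41% (MICs) against 14.5%, 1.28% and 7.76% (non-MICs). The share of Epas1 against Hif1a was 32%, 16.6% and 7.54% (MICs) against 16.7%, 14.2% and 7.98% (non-MICs). In these last families the first pair had the largest gap, of 21.9 and 15.4 percentage points, and the mean difference between populations was below its spread over the pairs (7.70 ± 12.3 and 5.76 ± 8.44 points, SD, n = 3). The share of Egln3 was 22%, 14.8% and 11.3% (MICs) against 12.8%, 13% and 13.1% (non-MICs), level in non-MICs and spread in MICs. P4ha1 made up 42.8% to 58.5% of its pair with P4ha2.

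**Figure D4:**
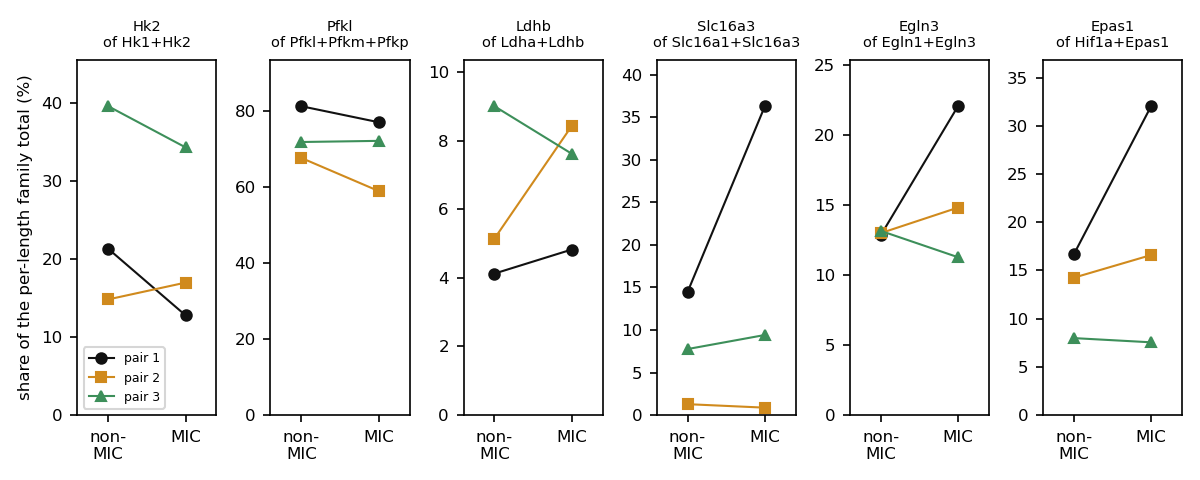
Share of 1 gene in the per-length total of its family (percent, each axis starting at 0) in non-MIC and MIC libraries, with a line for each same-numbered pair. The lines cross or differ in direction in each family shown, and the first pair rises most steeply for Slc16a3, Egln3 and Epas1.

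Other genes of both pathways were read from lists made for comparison. Of 35 further glycolysis genes (other isoforms, branches and regulators) 29 were measured, and 0 passed the limma test. Of these 29, all 3 pairs put 3 genes higher (10.3%, against 12.5% of all genes) and 7 genes lower (24.1%, against 18.8%) in MICs, and the median difference was -0.08. Slc2a10, a facilitative transporter of the glucose transporter family, was at 88.4, 34.5 and 84.5 (MICs) against 46.6, 17.96 and 43.5 (non-MICs), with a difference of 0.92 ± 0.35 (SE) and nearly the same value in each pair (limma, adjusted p = 0.418). Slc16a7 (MCT2), a monocarboxylate transporter, was at 305, 86.8 and 148 (MICs) against 146, 60.2 and 121 (non-MICs). Both transporters had higher values in the MIC library of each pair. Ldhd, the mitochondrial D-lactate dehydrogenase, was at 369.9, 156 and 147 (MICs) against 578, 238 and 294 (non-MICs), lower in MICs in each pair, with -0.75 ± 0.22 (SE, limma, adjusted p = 0.385). G6pc3, a widely expressed sugar phosphatase, was at 980.2, 881 and 905 (MICs) against 1082, 1117 and 1013 (non-MICs).

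Of 45 further hypoxia genes 43 were measured, with 0 past the limma threshold, 12 higher (27.9%, against 12.5% of all genes) and 10 lower (23.3%, against 18.8%) in all 3 pairs, and a median difference of 0.02. At an unadjusted p under 0.05 limma had 6 higher and 2 lower of the 43. Of all 22310 genes 1169 were higher and 1332 lower at this mark, 11.2% with both directions together. On the recovered reads edgeR and DESeq2 each called 1 of the 43, against 1.41% and 0.596% of all genes. Higd1a, a mitochondrial protein, was at 2324, 1893 and 1225 (MICs) against 1654, 1115 and 1187 (non-MICs). Zfp395, a zinc finger protein, was at 757, 506 and 1223 (MICs) against 1388, 772 and 1316 (non-MICs). Selenbp1, a selenium-binding protein, was at 21.6, 0 and 52.7 (MICs) against 32.8, 12.7 and 55.4 (non-MICs), with 1 MIC library at 0. The F test between numbers called 24 of the 43 (55.8%, against 28.4% of all genes).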

How the data were processed

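RNA of 3 MIC and 3 non-MIC libraries was sequenced with a stranded mRNA kit (75 cycles). The methods of the study name Bowtie2 and samtools against the mouse transcriptome (GRCm38/mm10), whereas the submitters' processing notes name STAR, HTSeq, mm10 and GRCm38, and versions are not given in the sources used here. The deposited signal is gene counts scaled by the authors to a common total of 35000000 per library. After division by the value of 1 read (0.676 to 1.11 by library), 99.99% to 100.0% of values lay within 0.01 of a whole number. Every gene of the table was above 0 in at least 3 libraries, and no further filter was used.

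GENCODE vM21 (GRCm38) gave a symbol for 22161 of the 22310 identifiers. Aldoa stood under a second identifier at 8.90 to 27.5, and the identifier with the larger overlap with the RefSeq gene was kept. The main test was limma 3.58.1 (trend) in R 4.3.3 on log2(value + 1) with the replicate number as a block, p-values adjusted over all 22310 genes (Benjamini-Hochberg) and a threshold of 0.05, since the genes were to be compared by same-numbered pair and the study compares MICs and non-MICs by paired tests elsewhere. A fold change on this scale understates the change of low genes. The pairing comes from the numbers in the labels and from the values. Deviations from the group means correlated at 0.757, 0.820 and 0.875 within numbers 1, 2 and 3. The average of -0.404 between numbers largely follows from removing the group means and is no separate support. Without the block limma called 0 of all genes (smallest adjusted p = 0.816), so the calls of Thy1 and of the basal markers rest on the block. The recovered reads were also tested with edgeR 4.0.16 and DESeq2 1.42.0. The study counts the comparison as 3 independent experiments or tumors, and no source says that the libraries came from separate animals. The p-values of the main fit measure the spread of the differences within same-numbered pairs, which may be technical in part.

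The genes and lists were chosen with earlier results of these data known. The genes named are the 36, those of the comparison lists past the threshold or otherwise the 2 in each direction with the smallest p and the same direction in 3 pairs, the genes of the sort, and defining markers. Some genes that this rule or the marker lists cover are not reported here. Per-length values divide by the union of exons. The fits were tested on simulated data, and Python 3.11.15 with pandas 2.3.3 and matplotlib 3.10.9 was used for the rest. Alternatives were pseudocounts of 0.1 and 10, TMM scaling, a mean value of at least 10, no replicate block, the other tools, each replicate number left out, and the longest transcript as length.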

Additional observations from a re-analysis of the deposited data

How the results depend on the processing

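No member passed the threshold in MICs against non-MICs under any alternative run. Without the replicate block limma called 0 of all genes (smallest adjusted p = 0.816), so that fit could not have called a member. The differences themselves kept their values. With each replicate number left out (both libraries of the pair), the count of members higher in all remaining pairs ran from 1 to 11 and the count lower from 10 to 17, against 0 and 9 with 3 pairs, since fewer pairs have to share a sign. The mean difference of 14 members turned in sign under such a removal and that of 22 did not. Those 14 ranged over these log2 differences: Hk1 -0.39 to 0.0618, Pfkfb4 -0.38 to 0.0711, Aldoa -0.28 to 0.16, Tpi1 -0.39 to 0.0300, Gapdh -0.28 to 0.0218, Pgk1 -0.0326 to 0.22, Pgam1 -0.13 to 0.20, Eno1 -0.37 to 0.0098, Ldha -0.15 to 0.29, Slc2a1 -0.12 to 0.15, Slc16a3 -0.0910 to 1.12, Egln3 -0.16 to 0.28, Vegfa -0.0174 to 0.0432 and P4ha1 -0.0263 to 0.55. With DESeq2 the log2 differences of Slc2a1 (0.0051), Hif1a (0.0199) and Ndrg1 (0.0016) were above 0, and the median of all genes was -0.02 in that fit, against -0.04; the cause was not tested. The count of members called between replicate numbers was 9 to 17 under the alternatives, against 13, and 16 where genes below a mean value of 10 were left out and fewer were tested. No share of all genes is given for these alternatives, so their counts cannot be set against it. The median of the transporters was 0.11 with a pseudocount of 10, under which Slc2a3, the lowest of the 36 per length, was at 0.16. Of the 24 isoform shares, 0 moved beyond the spread between replicates with the longest transcript as length. Depth limits Eno2 and Slc2a3, which rest on 3 to 43 reads.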
